A study of Drosophila melanogaster with 3 samples.

Results

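The insulin and TOR pathway genes described here were Lk6, InR, chico, Akt, foxo, Thor, S6k and Tor, 8 of 13968 protein-coding genes on the 7 chromosome arms used. They were listed by name, and the choice was made with the peaks of these data known, the strong intronic peak of Lk6 among them. Peak positions, signals and ranks are therefore given as descriptions, with no test. Every deposited peak summit within a gene, or within 2 kb of either end, was assigned to that gene, and this stretch is called its territory.

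Dek, a chromatin protein that binds DNA and chaperones histones, was mapped by chromatin immunoprecipitation and sequencing (ChIP-seq) in whole Drosophila melanogaster embryos of both sexes, collected from 0 to 24 h. All 3 biological replicates formed 1 group: a transgenic line with a stable insertion in which GFP is joined to the C terminus of Dek, precipitated with an antibody to GFP. There was no second genotype, treatment or stage, and a control experiment that the labels name as possible was not analysed here. Whether these embryos also make untagged Dek is not given in the sources used here, and peaks from whole embryos of mixed age cannot be assigned to a cell type or an hour.

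In flies, insulin-like peptides bind the receptor InR, which signals through the adaptor Chico and PI 3-kinase to the kinase Akt. Akt keeps the transcription factor Foxo out of the nucleus and, through the TSC proteins and Rheb, raises the activity of the kinase Tor. Tor in turn phosphorylates S6k and the translation repressor Thor, while Lk6, the fly counterpart of the mammalian MNK kinases, phosphorylates the cap-binding protein eIF4E downstream of MAP kinase. The pathway sets growth and protein synthesis by nutrient supply.

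The authors deposited 30000 peaks for each replicate, 30000 for the pooled replicates, and 4736 that passed an irreproducible discovery rate (IDR) threshold. The IDR peaks were the 4736 strongest pooled peaks. Their signal, whose unit is not stated in the labels or file headers, ran from 163.9 to 4883 with a median of 266.8. Ranks count from 1 for the strongest peak of a list, and replicates were compared by rank, since the files give no depth. The replicate and pooled lists reach down to peaks with a low −log10 q value, at least 0.186, against at least 3.25 in the IDR list.

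Of the 8 genes, 7 had an IDR summit in their territory, where 37.6% of all protein-coding genes did. An IDR summit lay at a promoter, within 500 bp of an annotated start site of the gene, in 6 of 8, against 22.8% of all protein-coding genes. When a summit counted only for the gene with the nearest start, 5 of 8 had one in the territory (against 21.2%). By that rule 5 of 8 had one at a promoter (against 16.6%). Akt and Tor dropped out, as their only IDR summits lay closer to starts of Mhcl and Vha68-1. Long genes more often held peaks: among genes of 10 kb or more, a length set after the values were seen, 57.4% had a summit in the territory and 33.1% at a promoter, and all 4 of the long genes here (Lk6, InR, foxo and S6k) had both. In all, 20 IDR summits fell in the 8 territories, 10 in introns, 6 at promoters, 2 in the upstream flank, 1 in the downstream flank and 1 in a coding exon. Their median signal was 198.2, and 12 of the 20 were weaker than the median IDR peak. The territories held 1.25 IDR summits per 10 kb, against 0.543 for all protein-coding genes and 0.36 for genes of 10 kb or more.

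The sequences around 7 of these summits are shown because they span the range of sites at these genes: both strong sites of Lk6, an intronic, an A- and T-rich intronic and a coding site of InR, and the promoter sites of foxo and Tor. Each window is 201 bases of RefSeq Release 6 (dm6) centred on the IDR summit, written 5′ to 3′ on the strand of the gene. The windows are chr3R:11760952-11761152 and chr3R:11764473-11764673 on the minus strand for Lk6, chr3R:21590716-21590916, chr3R:21612926-21613126 and chr3R:21580199-21580399 on the minus strand for InR, chr3R:14056485-14056685 on the plus strand for foxo and chr2L:13004147-13004347 on the plus strand for Tor. Capitals mark 4 motifs found on either strand. These are the motif GAGAG of the GAGA factor (read as CTCTC on the other strand), the motif CGATA (read as TATCG), the forkhead core GTAAACA (read as TGTTTAC) and the run AAAAAA (read as TTTTTT).
Lk6, intronic summit: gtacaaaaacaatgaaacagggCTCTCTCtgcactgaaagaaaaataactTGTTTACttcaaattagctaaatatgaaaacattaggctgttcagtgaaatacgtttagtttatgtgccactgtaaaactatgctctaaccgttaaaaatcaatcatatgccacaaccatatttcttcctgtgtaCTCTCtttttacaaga
Lk6, upstream promoter summit: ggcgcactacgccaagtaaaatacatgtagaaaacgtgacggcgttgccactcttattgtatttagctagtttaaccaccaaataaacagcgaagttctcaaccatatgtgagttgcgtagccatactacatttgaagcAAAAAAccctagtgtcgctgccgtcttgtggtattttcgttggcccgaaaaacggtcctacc
InR, strongest intronic summit: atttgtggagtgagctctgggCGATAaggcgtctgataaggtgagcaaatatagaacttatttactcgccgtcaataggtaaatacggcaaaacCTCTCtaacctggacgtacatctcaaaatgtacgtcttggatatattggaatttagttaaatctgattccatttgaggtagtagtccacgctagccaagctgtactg
InR, intron 1 summit: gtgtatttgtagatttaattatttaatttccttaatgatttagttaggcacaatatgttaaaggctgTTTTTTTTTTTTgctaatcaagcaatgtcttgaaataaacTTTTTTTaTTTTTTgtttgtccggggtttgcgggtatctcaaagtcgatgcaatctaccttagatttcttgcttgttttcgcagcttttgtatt
InR, coding exon summit: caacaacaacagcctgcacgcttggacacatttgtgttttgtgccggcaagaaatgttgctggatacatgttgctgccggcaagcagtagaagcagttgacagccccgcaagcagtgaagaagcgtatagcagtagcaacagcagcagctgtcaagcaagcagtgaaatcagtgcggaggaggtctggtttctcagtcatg
foxo, promoter summit: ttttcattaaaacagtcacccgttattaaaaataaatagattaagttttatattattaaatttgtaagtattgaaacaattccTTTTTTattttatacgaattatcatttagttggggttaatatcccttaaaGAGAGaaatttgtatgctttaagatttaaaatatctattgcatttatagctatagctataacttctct
Tor, promoter summit: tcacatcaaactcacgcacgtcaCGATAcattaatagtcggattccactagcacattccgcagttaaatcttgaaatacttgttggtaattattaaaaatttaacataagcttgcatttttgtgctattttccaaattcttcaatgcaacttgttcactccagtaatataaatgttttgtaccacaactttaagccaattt

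Lk6 (FBgn0017581, 3R from 11750931 to 11764457, minus strand) has 2 annotated starts, that of transcript RA at 11764457 and that of RB at 11760079. Its strongest IDR summit, at 3R 11761052, lay in intron 1 of RA, 3405 bp downstream of the RA start and 973 bp upstream of the RB start, and thus outside the 500 bp promoter window of either. The peak signal was 951.5 in replicate 1, 1134 in replicate 2 and 1261 in replicate 3, and 3352 in the IDR list. These were the ranks 13, 12 and 6 in the replicates (mean 10.3 ± 3.79, SD, n = 3) and 9 in the IDR list. The 3 replicate summits fell 3 bp, 6 bp and 1 bp from the IDR summit. Among 1443 IDR summits that lay in introns and over 500 bp from any start site, it ranked 3. The window holds GAGAG 3 times, of which the overlapping pair forms the run CTCTCTC at its 5′ end, and the forkhead core GTAAACA at base 51, counted from 1 at the 5′ end.

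The upstream start of Lk6 carried a second IDR summit, at 3R 11764573, 116 bp upstream of the RA start. Its signal was 112.7, 162.5 and 171.9 in replicates 1, 2 and 3, and 456.1 in the IDR list (rank 989). The third IDR summit, at 11759111, lay in intron 1 of both transcripts, 968 bp downstream of the RB start, with a signal of 193.3 (rank 3826) and ranks of 5844, 3179 and 3318 in the replicates. The RB start itself had no IDR summit within 500 bp. Nearest to it were pooled summits 151 bp downstream (signal 138.1, rank 5908) and 351 bp upstream (signal 104.1, rank 8360), and in replicate 3 a summit 92 bp downstream of it reached rank 2061.

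The strongest peak in its territory exceeded the next by 8.44, 6.98 and 7.34 times in replicates 1, 2 and 3 (mean ratio 7.59 ± 0.761, SD, n = 3). The same ratio was 1.27 ± 0.231 for InR, 1.38 ± 0.265 for Akt, 1.32 ± 0.2 for foxo, 2.12 ± 0.434 for Thor and 1.22 ± 0.147 for S6k, each over the same 3 replicates. The lowest ratio at Lk6 was thus above the highest at these 5 genes, 2.52 for Thor in replicate 1. Lk6 was chosen with its strong peak known, and the ratio is given for the genes described here only. The contrast is therefore a description. Tor had ratios of 3.52 in replicate 1 and 2.81 in replicate 3. The next summit was taken at any distance from the strongest. For Tor in replicate 1 it lay at 13004469 (signal 76.01), in the same promoter window as the strongest at 13004270 (267.7). The summit of Tor after that had a signal of only 19.51. For Thor in replicate 1 the 2 summits, at 3477547 and 3477747, were also close together. Ratios between separate sites were not taken. In replicate 2 it had a single summit (signal 174.9), in a list that reached down to 18.13, so no ratio could be taken. A ratio to any unlisted peak below that level would exceed the 6.98 of Lk6 in that replicate. In the pooled list, where the next summit of Tor had a signal of 43.3, its ratio of 11.6 exceeded the 7.35 of Lk6.

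**Figure D1:**
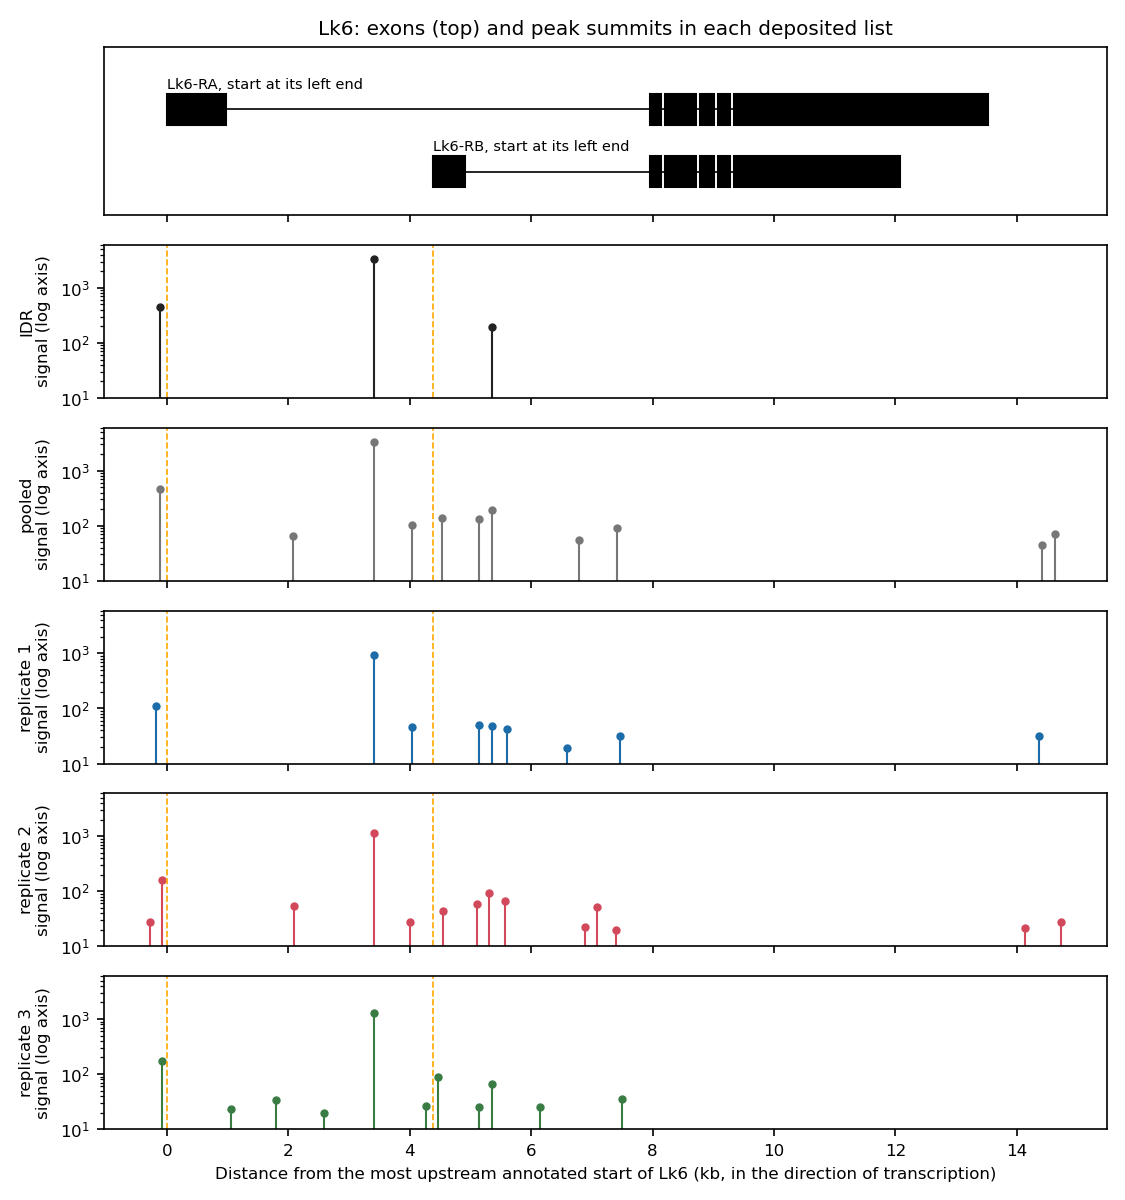
Exons of both Lk6 transcripts and all peak summits in the gene or 2 kb around it, by distance (kb) from the upstream start in the direction of transcription; stems give the deposited signal on a log axis in each list, and dashed lines mark the annotated starts. The tallest stem, between the starts and 973 bp before the downstream one, stands at the same place in all 5 lists, with a signal of 951.5, 1134 and 1261 in the replicates.

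By a measure that used only rank, the summed absolute log2 ratio of a gene's best rank to that of Lk6 over the 3 replicates, ph-p was the gene most like Lk6 among 8100 compared, at 0.905. The best peak of ph-p, a Polycomb group gene, lay 480 bp upstream of its start and had ranks 10, 10 and 5. CenG1A, Polr2C and mRpS23 followed with 1.33 each, all through 1 shared peak with ranks 21, 14 and 8. Gprk2, at 1.45, shared its peak with PNPase, whose start was 84 bp from it.

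InR (FBgn0283499, 3R from 21570248 to 21619321, minus strand), the insulin receptor gene, had the most IDR summits of the 8, 9 in its territory. At least 9 were found at 18 of 13968 protein-coding genes, or 0.129%, and the highest number at any gene was 15. InR is 49.07 kb long, and per 10 kb its 1.7 IDR summits were close to the 1.71 of Lk6. Its 4 annotated starts form an upstream pair, RB at 21619321 and RA at 21619036, and a downstream pair, RC at 21592121 and RD at 21590191.

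The strongest IDR summit of InR, at 3R 21590816, lay between the downstream starts, 625 bp upstream of the RD start and 1305 bp downstream of the RC start, inside intron 1 of RC and intron 2 of RA and RB. Its signal was 137.4, 198.2 and 134.8 in replicates 1, 2 and 3 (ranks 1367, 799 and 924), and 449.6 in the IDR list (rank 1018). Like the strong summit of Lk6, it lay upstream of an internal start and inside an intron of longer transcripts, at a signal well below that of Lk6 in every replicate. A weaker summit at 21589686 (signal 212.1, rank 3357) lay 505 bp downstream of the RD start, just outside the promoter window.

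The upstream starts of InR shared an IDR summit at 21619374, 53 bp upstream of RB and 338 bp upstream of RA. It had a signal of 280.5 (rank 2213) and ranks of 2052, 2287 and 697 in the replicates. Intron 1 of RA and RB held 3 further IDR summits, of which that at 21613026, 6010 bp downstream of the RA start, was the strongest, with a signal of 318.7 and replicate ranks of 1590, 1806 and 2723. Another, at 21615074 (signal 185.3), lay in the non-coding gene lncRNA:CR44034, 666 bp from its start. The third, at 21613628, had a signal of 164.3. In intron 2, the summit at 21594579 (signal 187.1) lay within lncRNA:Irar. In intron 3 of the same transcripts, a summit at 21586353 had a signal of 168.6 and lay 3838 bp downstream of the RD start.

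The last IDR summit along InR, at 21580299, fell in a coding exon 9892 bp downstream of the RD start. It was 1 of only 4 among 4736 IDR summits that lay in a coding exon and over 500 bp from any start site. Its signal was 193.2 (rank 3829), with ranks of 13308, 3642 and 2601 in replicates 1, 2 and 3, so that replicate 1 held it far down its list. The window had 51.2% G and C, as high as at the InR promoter summit and above the other 18, and none of the 6 motifs.

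**Figure D2:**
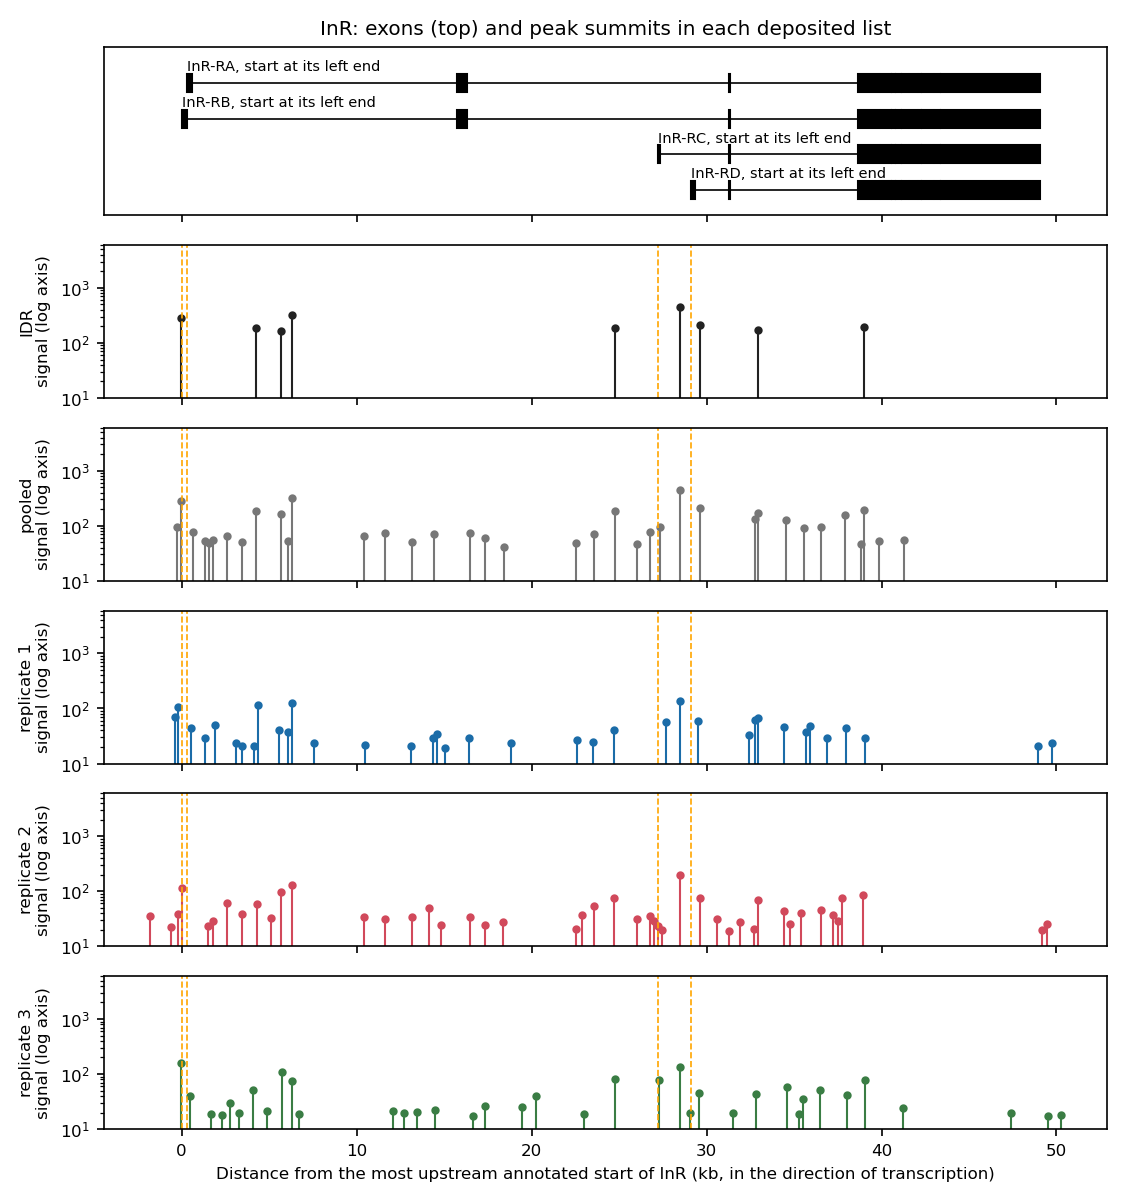
Exons of the 4 InR transcripts and all peak summits in the gene or 2 kb around it, by distance (kb) from the upstream start in the direction of transcription, with the deposited signal on a log axis in each list and dashed lines at the annotated starts. The 9 IDR summits lie near the upstream starts and around the downstream ones, with 1 in a coding exon towards the 3′ end, none above a signal of 449.6, and short introns at the 3′ end are not resolved at this scale.

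chico (FBgn0024248, 2L from 10242512 to 10247078, minus strand) encodes the receptor adaptor and had no summit in its territory in the IDR list, the pooled list, replicate 1 or replicate 3. A pooled summit lay in the territory of 68.3% of protein-coding genes, and of 7 of the 8 genes here. A peak of any rank did so for 73.9%, 70.1% and 71.2% in replicates 1, 2 and 3, and for 7, 8 and 7 of the 8. In replicate 2, chico had a summit 45 bp upstream of its start, at 10247123, with a signal of 78.4 and rank 4176. The nearest IDR summit was 46030 bp from the chico start.

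The chico gene sits in a long stretch of 2L without pooled summits. Between the pooled summits at 10203961 and 10304030, 100.1 kb apart, there was none, although this stretch holds 32 protein-coding genes. Of 29983 gaps between neighbouring pooled summits on 5 arms, 57 were at least as long, and the median gap was 1.32 kb. Those 57 gaps held a median of 6 protein-coding genes, and 2 of them, this one included, held 32 or more. The replicates differed there: replicate 1 listed no summit in the stretch, replicate 2 listed 27 with the best at rank 1304, and replicate 3 listed 16 with the best at rank 1274. The pooled list and replicate 1 were thus without peaks where replicates 2 and 3 had 5 and 3 among their strongest 4736. The stretch was examined after the lack of peaks at chico was seen.

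Akt (FBgn0010379, 3R from 16099228 to 16105670, plus strand), the kinase gene, had 1 IDR summit in its territory and none at a promoter. It lay at 16097853, 1375 bp upstream of the first start, with a signal of 170.7 (rank 4477). This position is inside Mhcl, a myosin heavy chain-like gene, 908 bp from an Mhcl start. At the Akt start the pooled list had a summit 138 bp upstream, with a signal of 124.2 at rank 6759, below the IDR peaks. The best promoter peak of Akt had rank 2875 in replicate 1, 9319 in replicate 2 and 18135 in replicate 3. In replicates 2 and 3 the strongest Akt peak was intronic instead, 646 and 687 bp downstream of the start, at ranks 3663 and 2554.

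foxo (FBgn0038197, 3R from 14056945 to 14087978, plus strand) encodes the forkhead transcription factor that insulin signalling holds in check. Its promoter summit, at 14056585 and 360 bp upstream of the start, was the strongest promoter summit of the 8 genes in the IDR list, with a signal of 537.4 (rank 737). In replicate 3 the promoters of Lk6 (171.9), InR (157.2) and Thor (95.97) had stronger peaks. In replicates 1, 2 and 3 the peak within 200 bp of it had a signal of 288.8, 204.2 and 85.14, or ranks 351, 753 and 2148. Replicate 1 ranked this peak highest and replicate 3 lowest, whereas the Lk6 peak ranked highest in replicate 3. The window had 21.9% G and C, the 86th lowest of 4736. The second IDR summit, at 14089021, lay 1043 bp past the end of foxo and 496 bp from the start of Npc2b, with a signal of 484.5 (rank 878).

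The 2 kb limit decided part of the count at foxo. Just outside it, IDR summits at 14053598 and 14052290, 3347 and 4655 bp upstream of the gene, had signals of 1363 (rank 114) and 688.2 (rank 455), both stronger than any peak of foxo within 2 kb, and foxo had the nearest annotated start. In the replicates, the peak at 14053598 had ranks 155, 117 and 96. A weaker summit at 14052492 had a signal of 188.6. Akt had 1 at 16094350, 4878 bp upstream and 200 bp from a start of Mhcl, whose signal of 284.2 was above that of the counted Akt summit. Thor had 1 just outside too, at 3476124, 2310 bp upstream with a signal of 442.3 and 219 bp from the start of lncRNA:CR43928, and S6k had 1 at 5813195, 2264 bp upstream with a signal of 232.7 and 102 bp from the start of mad2. The summits nearest to the limit on its inner side were the Akt summit at 1375 bp and the foxo summit at 1043 bp.

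Tor (annotated as mTor, FBgn0021796, 2L from 13004480 to 13013197, plus strand), the central kinase gene, had 1 IDR summit, at 13004247, 233 bp upstream of its start. Its signal was 267.7, 174.9 and 70.84 in replicates 1, 2 and 3 (ranks 413, 1049 and 2966), and 503.1 in the IDR list (rank 824). The start of the neighbouring gene Vha68-1, which encodes a subunit of the vacuolar proton pump, was closer, at 140 bp. The peak cannot be assigned to Tor rather than to Vha68-1. No pooled summit lay inside the transcribed part of Tor.

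Thor (FBgn0261560, 2L from 3478434 to 3479612, plus strand), the 4E-BP gene and a textbook Foxo target, had a promoter IDR summit at 3478510, 12 bp upstream of the RB start, with a signal of 203.2 (rank 3555). The best promoter peak of Thor lay at a different place in each replicate, 201 bp downstream of the RB start in replicate 1 (rank 4607), 196 bp upstream of the RA start in replicate 2 (rank 3253) and 19 bp upstream of the RB start in replicate 3 (rank 1718). The other IDR summit of Thor, at 3477506, lay 928 bp upstream and within lncRNA:CR43928, with a signal of 184.6. It ranked 1047 in replicate 1 and 6615 in replicate 3, and replicate 2 listed none within 200 bp.

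S6k (FBgn0283472, 3L from 5797549 to 5810931, minus strand), the ribosomal protein S6 kinase gene, had an IDR summit at 5810872, 59 bp downstream of its start and 101 bp from the start of kri, with a signal of 192.2 (rank 3854). The peak had signals of 27.73, 92.37 and 44.37 in replicates 1, 2 and 3, at ranks 14363, 3234 and 6472. Only replicate 2 placed it among its strongest 4736 peaks. A second IDR summit, at 5808315, was in intron 1, 2616 bp downstream of the start, with a signal of 174.4 (rank 4360).

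Over the replicates, the best rank in the territory ran from 6 to 13 for Lk6, 697 to 1367 for InR, 351 to 1738 for foxo, 413 to 2966 for Tor, 1047 to 3253 for Thor, 2554 to 3663 for Akt and 2843 to 5910 for S6k. The ranges of Lk6 and of the other genes did not overlap, but Lk6 was chosen with its strong peak known. Those of InR, foxo, Tor and Thor overlapped one another, and of these 4 only foxo and Tor kept their order in every replicate, with foxo ahead.

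**Figure D3:**
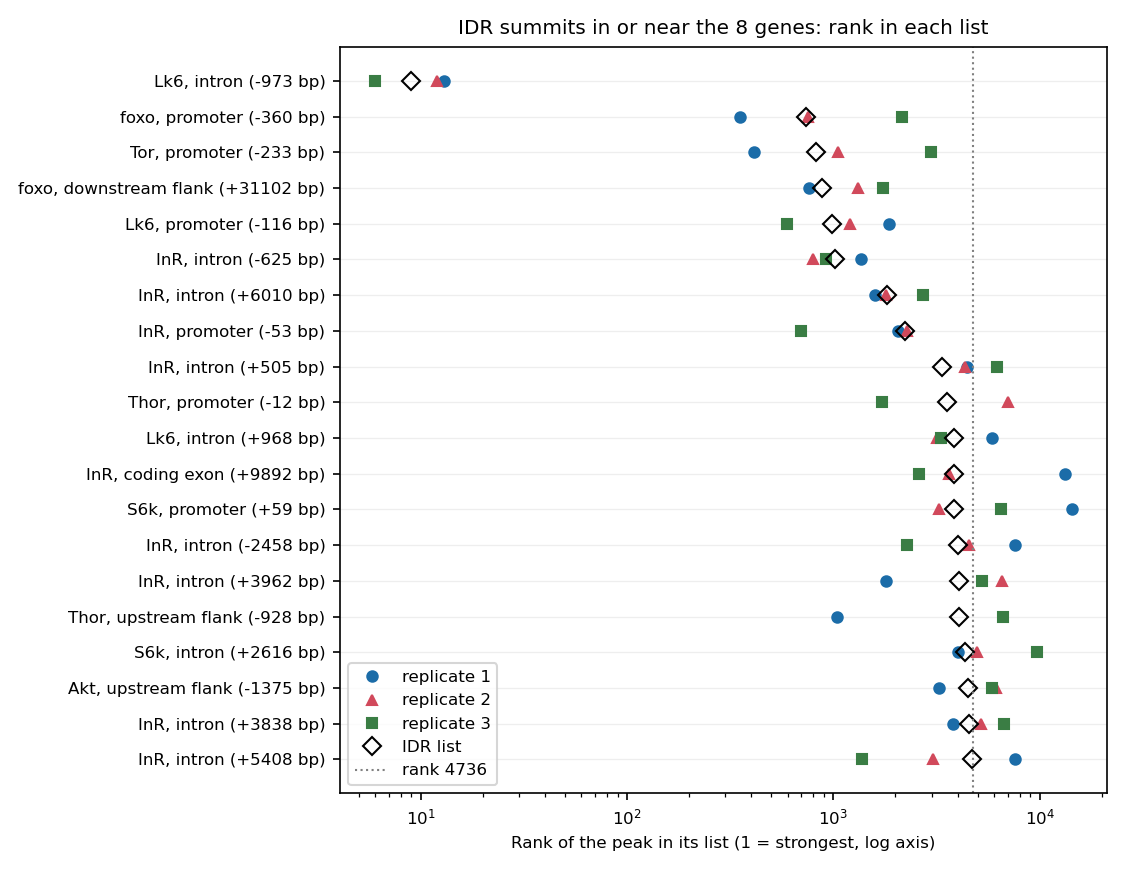
Rank of each of the 20 IDR summits (rows, with the distance in bp from the nearest start of the gene, negative upstream) in the IDR list and of the best peak within 200 bp in each replicate, on a log axis where 1 is the strongest peak; the dotted line marks rank 4736. Replicate ranks at Lk6 (6, 12 and 13) lie close together, whereas those of the S6k promoter run from 3234 to 14363.

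Support from the replicates was uneven. Of the 20 IDR summits, 6 (30.0%) lay inside one of the strongest 4736 peaks of all 3 replicates, where 49.5% of all IDR summits did. They were the intronic and promoter summits of Lk6, the InR summits at 21590816 and 21613026, the foxo summit at 14089021 and the Tor promoter summit. The nearest protein-coding start was that of Npc2b (496 bp) for the foxo summit and that of Vha68-1 (140 bp) for the Tor summit. Counting only summits held by all 3 replicates, 4 of the 8 genes had one in the territory, Lk6, InR, foxo and Tor, and 2 had one at a promoter, Lk6 and Tor. The shares of all protein-coding genes counted in this way were 22.8% and 12.1%. Another 7 lay inside such peaks of 2 replicates and 7 of 1 replicate. Without replicate 1, 11 summits (55.0%) lay inside such peaks of both others, against 62.5% of all IDR summits. Without replicate 2 there were 7 (35.0%, against 54.8%), and without replicate 3 also 7 (35.0%, against 65.3%). When peaks of any rank in the full replicate lists counted, 18 (90.0%) lay inside peaks of all 3 replicates, against 86.0%. The full lists covered most IDR summits of either set, so they cannot show whether support differed. The 20 summits had a lower median signal than all IDR summits (198.2 against 266.8), and shares were not compared at like signal. The foxo promoter summit counted for 2, since the replicate 1 peak at rank 351 ended before the IDR summit. The InR promoter summit also counted for 2, since the replicate 2 peak at rank 2287 did not cover the IDR summit. Both promoters had a summit among the strongest 4736 peaks of every replicate.

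Counted in each replicate alone, over its strongest 4736 peaks, 6, 7 and 5 of the 8 genes had a promoter summit (mean 6 ± 1, SD, n = 3). The share of all protein-coding genes was 21.8%, 23.9% and 20.8%. Lk6, InR, foxo, Thor and Tor were among them in every replicate, chico and S6k in replicate 2 and Akt in replicate 1. Thus 3 of the 8 genes had such a promoter peak in 1 replicate only. The shares of all protein-coding genes with one in every replicate, or in 1 only, are not given here. Whether these counts are unusual was not tested.

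G and C made up 37.0% of the bases within 100 bp of the 20 summits (SD 7.85 over summits, range 21.9% to 51.2%), against 34.7% for all IDR summits. At positions 500 bp away the means were 42.7% and 43.9%. The summit was poorer in G and C than its surroundings at 14 of 20 (70.0%), compared with 81.6% of all IDR summits. Around the peaks of the single replicates in these territories, taken from the strongest 4736, G and C made up 34.8%, 40.0% and 41.6% in replicates 1, 2 and 3, over 23, 18 and 17 summits. Summits of 1 gene share a locus and are no replicates.

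Of 6 short motifs, sought on both strands up to 100 bp from each summit, the run AAAAAA was present at 11 of 20, against 48.8% of all IDR summits and 30.5% of windows 500 bp away. CGATA was present at 5 of 20, against 29.4% and 21.9%, and the longer TATCGATA, which contains it, at 0 of 20, against 4.18% and 0.454%. GAGAG, bound by the GAGA factor, was present at 5 of 20, against 19.5% and 26.0%. The forkhead core GTAAACA was present at the strongest Lk6 summit and the Thor promoter summit, 2 of 20, against 6.42% and 4.76%. CACGTG, the E-box bound by Myc, was present at 0 of 20, against 1.71% and 2.85%. For these motifs other than CACGTG and TATCGATA, the side of the 20 summits relative to all IDR summits turned with a window of 200 bp. These counts describe letters in a window, not binding by any factor.

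The wider pathway was described with 68 other genes, from ligands to outputs. An IDR summit lay at the promoter of 25 of them (36.8%, against 22.8% of all protein-coding genes) and in the territory of 37 (54.4%, against 37.6%). With only the strongest 2368 IDR peaks, 11 (16.2%) had a promoter summit, close to the 13.2% of all protein-coding genes. Of the 23 pathway genes of 10 kb or more, 13 (56.5%) had a promoter summit, against 33.1% of all genes of that length. The counts by role that follow stand beside the shares of 22.8% and 37.6% of all protein-coding genes. Each role holds few genes, of unlike length, and roles were not compared at like length.

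Among 11 ligands and binding proteins, 3 had an IDR summit: conv at its promoter (266.1, 238 bp from the start of Sps1, which is closer), and ImpL2, which binds insulin-like peptides, and Ilp6 outside it. The peptide genes Ilp1, Ilp2, Ilp3, Ilp4, Ilp5, Ilp7 and Ilp8 and the binding protein gene Sdr had none. At the receptor level, promoter summits were present at 3 of 4 genes, Ptp61F (249.4), a tyrosine phosphatase gene whose peak lay closer to the start of CG9166 at 230 bp, and the adaptors dock (226.3) and Lnk (179.8). In the PI 3-kinase branch, 6 of 8 genes had a promoter summit, led by sgg (1118), the GSK3 kinase gene, Pi3K21B (705.1), the regulatory subunit, and melt (599.1). The catalytic subunit gene Pi3K92E had no IDR summit.

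Of the 7 transcription regulators, 5 had a summit, and REPTOR, a transcription factor that Tor represses, had the strongest promoter peak of the list (1632), with 14-3-3zeta (186.5) second in its group. Of the 4 TSC and Rheb genes, Rheb, the small GTPase that activates Tor, had a promoter summit (225.5) that lay closer to the start of CG2931 at 113 bp, while Tsc1 and gig, which encodes the partner of Tsc1, had none. The fourth, PRAS40, an inhibitor of Tor complex 1 in mammals, had 6 summits and none at a promoter, the strongest (851.0, rank 305) in an intron. The 4 genes for partners of Tor in its complexes had 1 weak summit among them, at raptor (168.8), outside its promoter. That summit lay closer to the start of Nep1, at 198 bp. Of 12 genes of amino acid sensing 8 had a summit, with promoter signals of 1484 at Sesn, 665.5 at Wdr24 and 271.7 at Wdr59. The Sesn peak lay as near to a start of CG46429, at 229 bp. In the AMPK branch, SNF4Agamma (268.3) and alc (250.4), the gamma and beta subunit genes, had promoter summits and AMPKalpha had none.

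The translation outputs had promoter summits at 3 of 8 genes, S6KL (270.1), eIF4A (239.2) and eIF4E1 (164.5), whose product is the substrate of Lk6. The autophagy genes Atg17 (725.8, with the start of Xe7 closer at 138 bp) and Atg1 (166.0) had promoter summits. All 3 autophagy genes listed had 1 or more summits in the territory. Of the MAP kinase genes upstream of Lk6, Raf had 11 summits, the strongest (1668) in an intron 2253 bp downstream of a start, and rl and Dsor1 had none. Ilp6 lies within the span of Raf, and the Ilp6 summit, at X 2329543, was also counted for Raf. Raf, REPTOR, Sesn, mio (1437) and alc (1166) had the strongest territory peaks of the 68, yet the mio peak lay 274 bp from the start of papi and the alc peak 192 bp from that of CG44286. All 5 were weaker than the Lk6 peak at 3352.

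**Figure D4:**
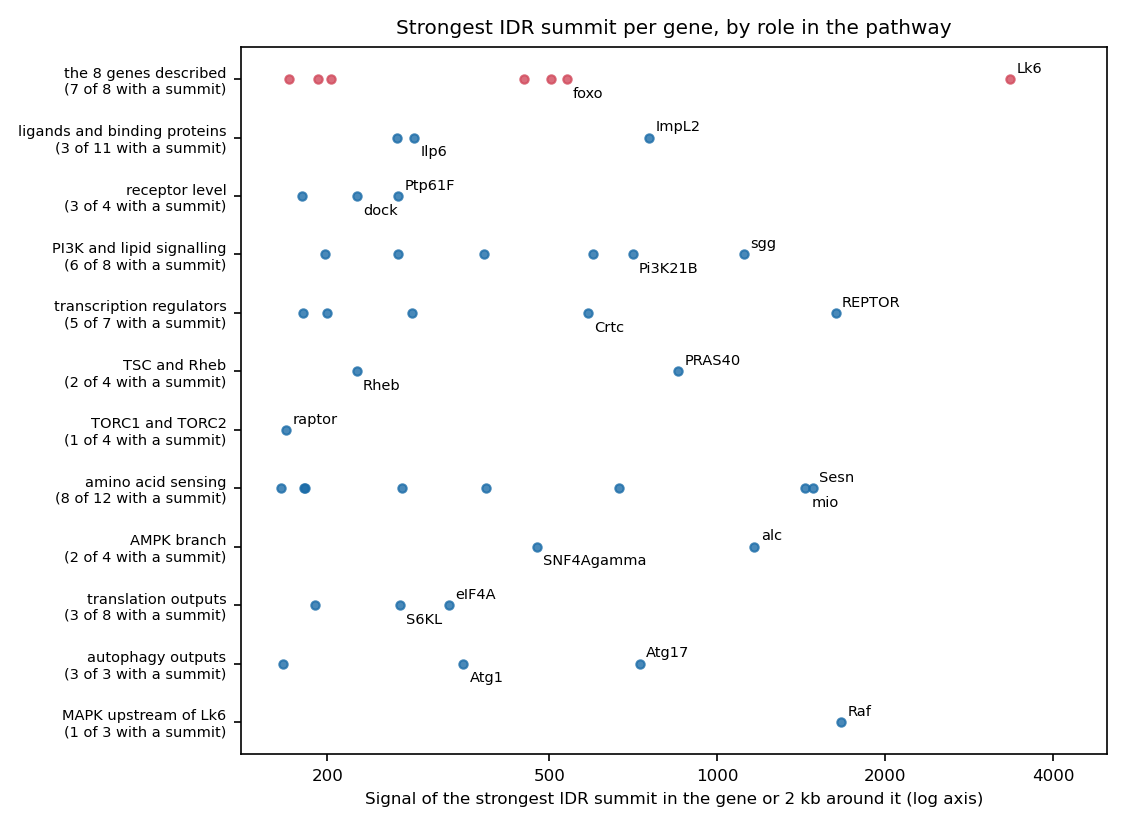
Signal (log axis) of the strongest IDR summit in the territory of each gene, grouped by role, with the number of genes that had a summit in brackets; red points are the 8 genes, blue points the 68 others. Lk6, at 3352, lies to the right of all other points, and the TORC1 and TORC2 group has 1 point of 4, raptor at 168.8.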

How the data were processed

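ChIP-seq of GFP-tagged Dek in 3 biological replicates of whole embryos, numbered as in the labels, was analysed as 1 group. The authors deposited 5 peak lists on dm6 in narrowPeak format, and each value used is theirs: the signal per peak, with no unit or normalization stated, the −log10 of the q value, and the summit offset. Per the deposited description files, the IDR list came from the pooled and replicate lists, and every replicate list also drew on 1 further shared file. What aligner, peak caller and IDR cut-off were used is not given in the sources used here. As the files hold no read counts, the depth is unknown, no interval is given and signals are compared within a list.

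Genes were those of Ensembl release 115. Of 13944 protein-coding symbols found in both that annotation and RefSeq, 13942 had the same coordinates. Tor was matched to mTor, and eEF2K, 1 of 69 pathway symbols, found no match. A summit could belong to several genes. Promoter means within 500 bp of a start of the gene, and territory means the gene and 2 kb around it. A replicate held an IDR summit if one of its strongest 4736 peaks covered it. Assignment was tested on simulated summits. Coordinates count from 1. Python 3.11.15, numpy 2.4.6, pandas 2.3.3 and matplotlib 3.10.9 were used.

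The genes, the pathway list and the motifs were chosen with earlier results of these data known. Named were all 8 genes; in each role up to 3 pathway genes with the strongest promoter summit; the 5 of the whole list with the strongest territory summit; neighbours with a closer start than the gene; and the 5 genes most like Lk6 in rank. Other pathway genes are named for having no summit or 1 outside the promoter, and PNPase because it tied with Gprk2. Alternatives were the strongest 2368 IDR peaks, summits held by every replicate or by 2 of them, RefSeq gene models, other flanks and windows, assignment to the nearest start, other replicate list lengths and, for overlap, a replicate summit within 100 bp.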

Additional observations from a re-analysis of the deposited data

How the results depend on the processing

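Of 77 alternative values, 43 stayed within 1.5 times the main count or within 1 SD and 34 did not. With only the strongest 2368 IDR peaks, genes with a territory summit fell from 7 to 4, summits from 20 to 8, pathway genes with a promoter summit from 25 to 11 and with a territory summit from 37 to 24. When a summit had to be held by every replicate, a stricter rule by construction, these became 4, 6, 10 and 20, and the 8 genes with a promoter summit fell from 6 to 2. The share of all protein-coding genes fell as well, to 23.8% for territory and 13.2% for promoter with 2368 peaks and to 22.8% and 12.1% when held by every replicate, so the pathway promoters (16.2% and 14.7%) came near it. Leaving out 1 replicate, so that the other 2 had to hold a summit, gave 4 for territory, 2 to 3 for promoter, 7 to 11 summits, 11 to 15 pathway promoters and 23 to 26 pathway territories, with 24.3% to 28.4% of all genes for territory and 13.0% to 16.3% for promoter. Counting a summit only for the nearest start gave 24 pathway territories (35.3%, against 21.2%). The 6 summits held by all replicates became 18 with the full lists (90.0%, against 86.0% of all IDR summits, where the main shares were 30.0% and 49.5%), and 7 to 11 without 1 replicate, the highest without replicate 1. The mean of 6 promoter genes per replicate became 4 with 2368 peaks per replicate, 4 with a 200 bp window and 5.5 to 6.5 without 1 replicate. The Lk6 summit had rank 13 in replicate 1 against 9 in the IDR list, and the mean rank was 9 to 12.5 without 1 replicate. Within 50 bp, GAGAG was present at 2 summits, CGATA at 2 and AAAAAA at 7; within 200 bp, CGATA was present at 10 and CACGTG at 1. Against the share of all IDR summits, the 200 bp window reversed the order for GAGAG (35.0% against 42.3%), CGATA (50% against 47.2%), GTAAACA (10% against 12.9%) and AAAAAA (65.0% against 69.6%), and the 50 bp window left it as it was for GAGAG (10% against 7.96%), CGATA (10% against 16.8%), GTAAACA (10% against 3.38%) and AAAAAA (35.0% against 28.8%). The cause of these shifts was not tested, beyond the fewer peaks or the other window that each alternative uses. No paired analysis was possible because all 3 replicates form 1 group. The files give no depth.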
